A study of Mus musculus with 22 samples.

Results

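The genes described here are 10 genes listed together as periportal nitrogen metabolism genes, taken by symbol from 47729 genes in each count table of mouse liver. Cps1, Otc, Ass1, Asl and Arg1 encode the enzymes of the urea cycle. Nags makes N-acetylglutamate, the activator that Cps1 needs. Hal (histidase), Gls2 (liver-type glutaminase) and Sds (serine dehydratase) break down amino acids and release ammonia. Aldh1b1, a mitochondrial aldehyde dehydrogenase, is listed with them but stands for aldehyde oxidation and not for a step of nitrogen handling. All 10 symbols were found and all 10 passed the filter on low counts in every comparison. They are protein-coding genes of GRCm38 (GENCODE M21): Cps1 at chr1:67123026-67231259, Otc at chrX:10252305-10321024, Ass1 at chr2:31470207-31520672, Asl at chr5:130011258-130029247, Arg1 at chr10:24915221-24927484, Nags at chr11:102145513-102149477, Hal at chr10:93488768-93519304, Gls2 at chr10:128194457-128210004, Sds at chr5:120476526-120483932 and Aldh1b1 at chr4:45799022-45804604.

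Blood enters the liver lobule beside the portal vein and leaves at the central vein. Hepatocytes at the portal end carry high levels of urea cycle and amino acid breakdown enzymes and turn ammonia into urea, while a thin layer around the central vein expresses glutamine synthetase (Glul) and captures the ammonia that escapes. Transcription of several urea cycle genes is known to respond to glucagon, glucocorticoids and dietary protein.

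The study measured poly(A) RNA in livers of male C57BL/6 mice that lack Slc10a1, the bile acid uptake carrier NTCP of the hepatocyte membrane, beside wild-type males. The groups were Slc10a1-/- (KO) at 4 weeks (3 libraries) and wild type (WT) at 4 weeks (3), KO (6) and WT (4) at 8 weeks, and KO (3) and WT (3) at 20 months, 22 libraries in all. No agent or diet is named for any group, and the way the allele was made is not given in the sources used here. The labels do not say which libraries came from separate animals, so p-values measure the spread between these libraries, which may be technical.

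Counts in genes totalled 5496425 to 5764357 in KO and 5796319 to 6956124 in WT libraries at 4 weeks, and 18032355 to 26789350 at the later ages. The 4-week libraries were read in pairs and the others from 1 end, and the 8-week libraries carry another run name than the other ages, so age, read layout and run cannot be told apart. Slc10a1 checked the labels. It stood at 107.5, 253.4 and 142.6 counts per 1000000 counts in genes (CPM, after TMM scaling) in 4-week KO livers, against 590.9, 701.2 and 677.5 CPM in WT livers, and KO libraries were below every WT library at the other ages too. Which exons the allele lacks is not given, so reads in KO livers do not by themselves go against the labels. Of the 6 hepatocyte markers, none was at 0 in any library, and their sum ranged from 47870 to 180000 CPM. The 3 kidney markers (Kap, Umod and Slc12a1) summed to 178.8 CPM in WT 8-week library 1 and to at most 0.1341 CPM in the other 5 groups. Arntl, a clock gene whose level swings over the day, was at 45.86 and 40.03 CPM in library 1 of KO and WT at 4 weeks and at 44.88 and 43.69 CPM in KO libraries 1 and 2 at 8 weeks, with 1.117 to 10.89 CPM in the other 18. Saa2, an acute phase gene, was at 57060 and 28140 CPM in 2 WT libraries of 20 months and at 178.8 CPM in the third. For several comparisons between groups that hold these libraries, some values are also given without them.

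Promoter sequences were at hand in RefSeq (GRCm38.p6) for 5 of the 10 genes. The 4 shown are Hal and Aldh1b1, whose messages rose most at 4 weeks, Ass1 of the urea cycle, and Otc, the urea cycle gene whose mean was not higher in KO at 4 weeks. Each runs 5′ to 3′ on the plus strand from 250 bases before to 50 after the RefSeq start, and capitals mark the motifs found. The windows are chr10:93488518-93488817 for Hal, chr4:45798772-45799071 for Aldh1b1, chr2:31470020-31470319 for Ass1 and chrX:10252055-10252354 for Otc.
Hal: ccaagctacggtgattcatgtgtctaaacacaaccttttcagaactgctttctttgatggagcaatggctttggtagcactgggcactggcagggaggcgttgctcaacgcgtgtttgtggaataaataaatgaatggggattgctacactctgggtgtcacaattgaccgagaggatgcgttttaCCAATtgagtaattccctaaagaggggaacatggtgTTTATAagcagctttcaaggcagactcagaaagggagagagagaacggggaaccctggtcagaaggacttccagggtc
Aldh1b1: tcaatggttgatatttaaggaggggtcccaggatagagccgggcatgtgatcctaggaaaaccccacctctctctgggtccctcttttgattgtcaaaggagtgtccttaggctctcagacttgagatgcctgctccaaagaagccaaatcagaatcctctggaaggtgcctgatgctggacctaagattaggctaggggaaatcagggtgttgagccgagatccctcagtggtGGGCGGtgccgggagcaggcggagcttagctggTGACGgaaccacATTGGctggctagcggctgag
Ass1: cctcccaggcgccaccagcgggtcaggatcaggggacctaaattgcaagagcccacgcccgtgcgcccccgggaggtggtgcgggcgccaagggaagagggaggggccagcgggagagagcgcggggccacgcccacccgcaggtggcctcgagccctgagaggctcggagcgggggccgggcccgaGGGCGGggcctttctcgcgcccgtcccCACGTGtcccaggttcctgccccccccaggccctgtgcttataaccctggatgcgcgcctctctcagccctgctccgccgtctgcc
Otc: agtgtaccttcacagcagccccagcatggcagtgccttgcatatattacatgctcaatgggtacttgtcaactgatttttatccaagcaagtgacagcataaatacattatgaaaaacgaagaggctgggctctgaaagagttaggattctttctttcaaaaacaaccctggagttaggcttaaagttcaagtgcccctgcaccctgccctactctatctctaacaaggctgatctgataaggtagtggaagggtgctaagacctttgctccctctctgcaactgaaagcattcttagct

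Both strands were searched for 7 motifs. They were the C/EBP palindrome TTGCNNCAA, found in 2.09% of 32544 promoters of the same length, the CCAAT box (CCAAT, 37.4%), the cAMP response core (TGACG, 20.9%), the TATA box (TATAAA, 13.6%), the nuclear receptor motif (AGGTCA, 16.2%), the GC box (GGGCGG, 35.9%) and the E box (CACGTG, 7.17%). No 2 marked motifs overlap. Hal holds a CCAAT box at -64 and a TATA box read on the minus strand at -28. Aldh1b1 holds a GC box at -16, the TGACG core at 18 and a CCAAT box on the minus strand at 30. Ass1 holds a GC box at -63 and an E box, the motif that clock factors bind, at -36. The Otc window holds none of the 7, which says nothing about any factor at Otc. Positions count from the RefSeq start, and a match is a description of letters, not a site.

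Levels can be set between genes per kilobase of exon, taken as all annotated exons of a gene merged. This length can exceed that of a message, as for Ass1 with 2414 bases against 1696 in its longest coding transcript. The order between genes thus depends on the annotation. In KO livers of 4 weeks Arg1 averaged 2630 ± 697 CPM per kb and Cps1 2239 ± 389, while in WT livers of 4 weeks Arg1 averaged 1089 ± 111 and Cps1 961.8 ± 170 (SD, n = 3 each). In both groups these neighbours lay within each other's spread. At 8 weeks Cps1 led with 1917 CPM per kb in KO livers and 1346 in WT livers, and at 20 months Arg1 led with 1132 in KO livers and 1012 in WT livers. In WT livers of 8 weeks the order below Cps1 was Arg1 (556.5 CPM per kb), Ass1 (524.5), Asl (128.5), Otc (100.2), Sds (92.82), Gls2 (92.4), Hal (46.54), Aldh1b1 (18.26) and Nags (12.48). Arg1 and Ass1 differed by less than their spread in that group, and so did Sds and Gls2. Nags, the source of the activator, was scarcer than every urea cycle enzyme in each of the 6 groups.

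**Figure D1:**
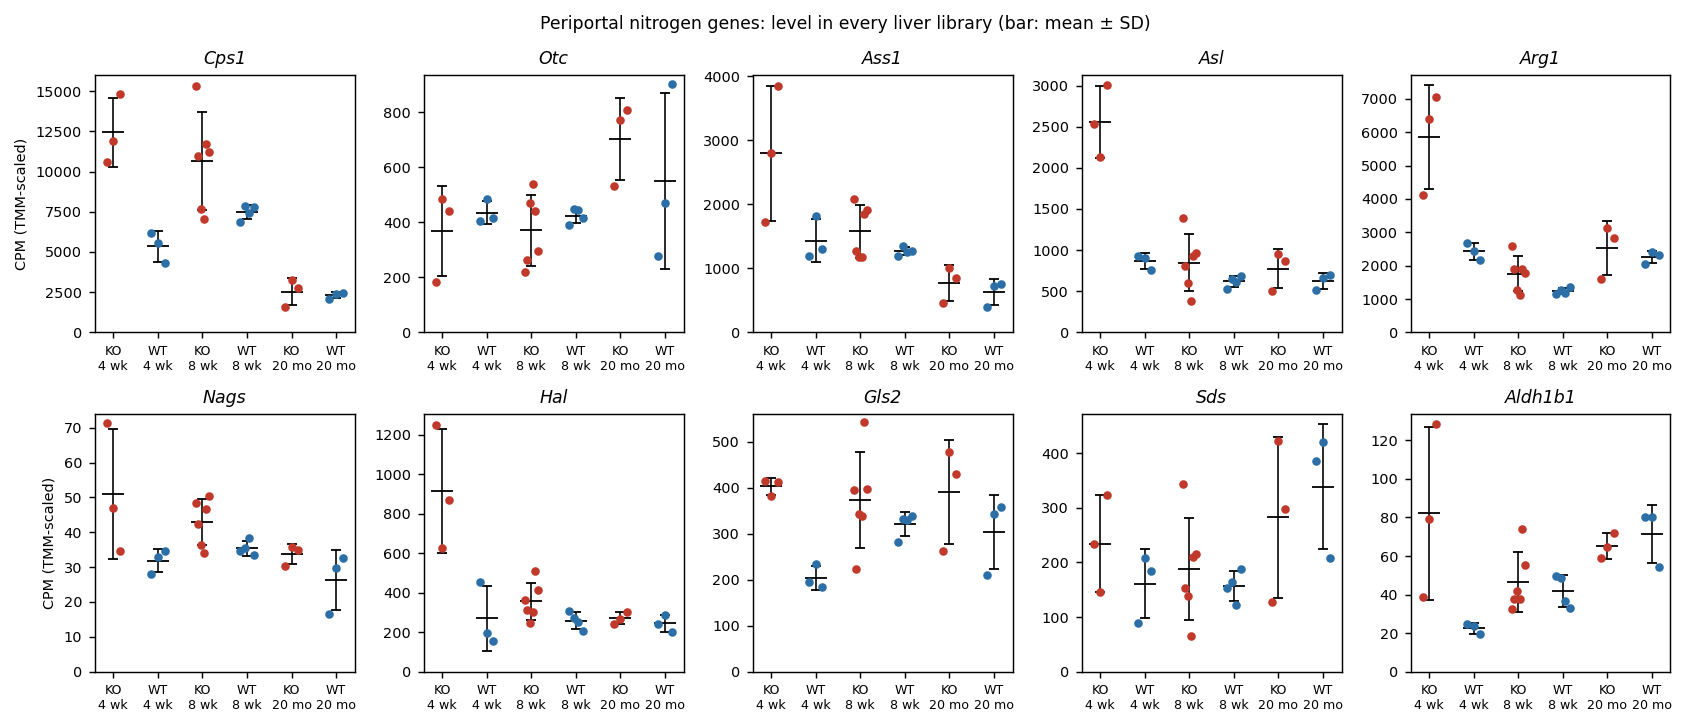
Level of each of the 10 genes in all 22 liver libraries, in TMM-scaled CPM, with a dot per library and a bar for the group mean ± SD, KO red and WT blue. At 4 weeks the KO dots of Cps1, Asl, Arg1 and Gls2 lie above all WT dots, Cps1 averaging 12440 CPM in KO and 5343 CPM in WT livers.

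At 4 weeks the question is whether loss of the bile acid carrier goes with another level of the nitrogen genes in young liver. Of the 10 genes, 6 rose in KO livers: Cps1, Asl and Arg1 of the urea cycle, Hal and Gls2 of amino acid breakdown, and Aldh1b1. None fell. The fold change ran from 1.02 to 1.89 on the log2 scale among these 6 genes, and the median over all 10 was 1.14, beside 0.01 over the 11144 genes tested. Together the 10 genes took 2.158% to 2.637% of all counts in KO livers, against 0.862% to 1.128% in WT livers. In bulk liver RNA, more or fewer cells of a type and more or less RNA per cell cannot be told apart.

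Of all genes tested at this age, 10.8% passed the threshold of 0.05 on the adjusted p in either direction, 5.17% as higher and 5.6% as lower in KO. In 7 of the 10 genes every KO library lay above every WT library, where 15.8% of all genes did so; 19.8% of genes had the reverse, and no member did. The exceptions were Otc, Ass1 and Sds. The test here and below is edgeR's quasi-likelihood F-test with Benjamini-Hochberg adjustment over all genes tested.

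Cps1, which joins ammonia and bicarbonate into carbamoyl phosphate in mitochondria, stood at 10590, 11910 and 14810 CPM in the 3 KO livers, against 6182, 5526 and 4321 CPM in the 3 WT livers. The groups did not overlap. Its log2 fold change was 1.25 (SE 0.30, adjusted p = 0.0345).

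Asl, which splits argininosuccinate into arginine and fumarate, was at 2532, 2132 and 3003 CPM in KO livers, against 932.1, 906.4 and 758.8 CPM in WT livers. The groups were far apart, and the log2 fold change was 1.60 (SE 0.25, adjusted p = 0.00887). Arg1, which releases urea from arginine, was at 4109, 6402 and 7070 CPM in KO livers, against 2667, 2442 and 2172 CPM in WT livers. It rose by 1.31 on the log2 scale (adjusted p = 0.0296, SE 0.30), with KO library 1 the lowest of the KO livers.

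Ass1, which condenses citrulline with aspartate, was at 1729, 2808 and 3846 CPM in KO livers, against 1189, 1812 and 1297 CPM in WT livers. KO library 1 lay below the highest WT library, and the log2 fold change of 1.00 (SE 0.34) had an adjusted p = 0.0918. Without that library it was 1.26 with adjusted p = 0.0101, and DESeq2 gave an adjusted p = 0.0198 with all libraries. A processed pseudogene of Ass1, Gm5424, matches it at 99.5% over 1240 bases and drew 41 to 893 counts per library, so the split of reads between them is uncertain.

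Otc, which makes citrulline from ornithine and carbamoyl phosphate, was at 182.8, 486.7 and 440.7 CPM in KO livers, against 405.8, 485.8 and 415.9 CPM in WT livers. The groups overlapped, and KO library 1 stood alone below the other 5 libraries. The log2 fold change was -0.20 (SE 0.35, adjusted p = 0.748), and it was 0.14 without KO library 1. In that library the hepatocyte markers summed to 47870 CPM, against 126500 to 177700 CPM in the other 5 libraries. Reads outside genes were 9.65% in it, against 6.13% to 7.87% in the other 5. The part of this in its low Otc was not tested. Otc was the one enzyme of the urea cycle whose mean was lower in KO (370 ± 164 CPM) than in WT livers (435.8 ± 43.5 CPM; SD, n = 3 each).

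Nags was at 71.23, 47.06 and 34.59 CPM in KO livers, against 28.11, 32.83 and 34.54 CPM in WT livers. The groups met at their edges, and a log2 fold change of 0.72 did not pass (SE 0.27, adjusted p = 0.12). An antisense gene overlaps Nags, but it drew at most 8 counts in any library.

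Hal, which removes ammonia from histidine, was at 1248, 623.9 and 868.7 CPM in KO livers, against 456.1, 197.7 and 154.7 CPM in WT livers. In both genotypes library 1, the one with high Arntl, was the highest. The log2 fold change was 1.79 (SE 0.45, adjusted p = 0.04), and without both of those libraries it was 2.14.

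Gls2, which frees ammonia from glutamine, was at 415.4, 381.3 and 411.6 CPM in KO livers, against 194.4, 233.8 and 183.5 CPM in WT livers. It varied least of the 10 in KO livers, with a coefficient of variation of 4.64%, and rose by 1.02 on the log2 scale (adjusted p = 0.0182, SE 0.20). Sds, which turns serine into pyruvate and ammonia, was at 234.3, 146 and 322.4 CPM in KO livers, against 88.99, 208.4 and 185.1 CPM in WT livers. Those groups overlapped, and its log2 fold change was 0.58 (SE 0.37, adjusted p = 0.327). The opposite-strand gene Plbd2 shares 365 bases with Sds, and the strand setting of the counting is not given. Gls2 likewise overlaps Spryd4 on the opposite strand.

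Aldh1b1 had the largest fold change of the 10. It was at 38.97, 79.04 and 128.3 CPM in KO livers, against 24.76, 23.7 and 19.42 CPM in WT livers, a log2 fold change of 1.89 (adjusted p = 0.0214, SE 0.39). The lowest and highest KO livers differed by more than the lowest KO and the highest WT liver did.

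The 4-week calls rest on few libraries. Without WT library 2 or WT library 3 no member passed, without KO library 3 Asl alone did, without WT library 1 Asl and Hal did, and without KO library 2 the calls of Cps1 and Arg1 were lost (adjusted p = 0.0505 and 0.0529). All genes called then numbered 234 without WT library 2, 184 without WT library 3, 429 without KO library 3 and 689 without WT library 1, in place of 1200, while the fold changes of these 6 genes stayed at 0.95 or more on the log2 scale. Scaling by library totals ended the call of Hal (adjusted p = 0.0523). Without both libraries of high Arntl, KO and WT library 1, 7 of the 10 passed and 2652 genes in all, these 7 with log2 fold changes of 0.99 (Gls2) to 2.32 (Aldh1b1). The gene gained was Ass1 (1.16, adjusted p = 0.0114), while Otc (0.10, adjusted p = 0.716), Nags (0.34, adjusted p = 0.256) and Sds (0.31, adjusted p = 0.493) did not pass.

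Measures of RNA quality moved with genotype at 4 weeks. Reads outside genes made up 7.77% to 9.65% in KO libraries, against 6.13% to 6.92% in WT libraries, and mitochondrial genes took 8.093% to 10.147% of counts in KO libraries, against 6.299% to 8.024% in WT libraries. Neither measure overlapped between the groups, and their part in the members' rise was not tested.

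**Figure D2:**
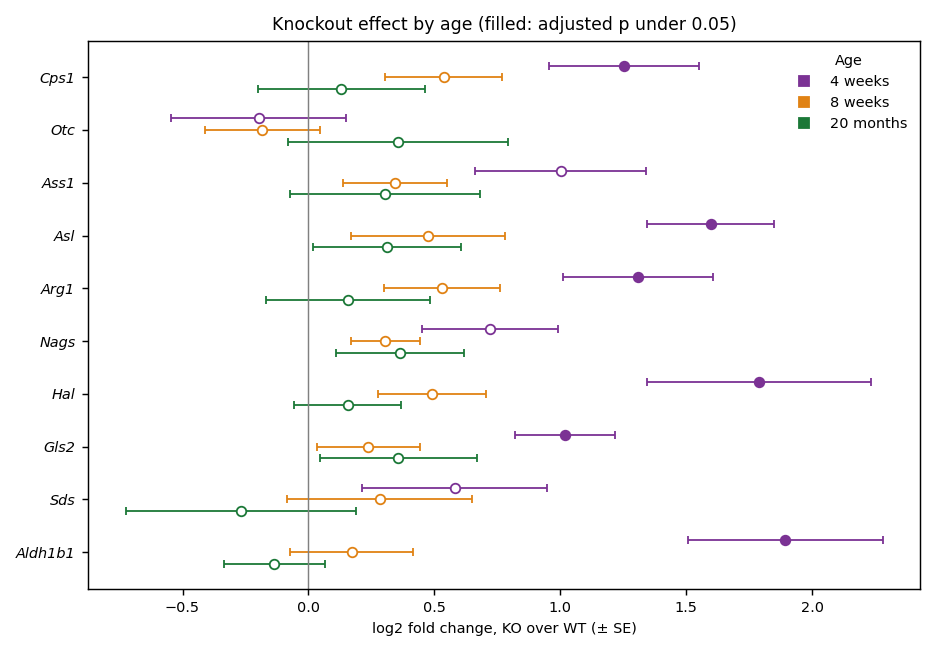
Log2 fold change of KO over WT for each gene at 4 weeks, 8 weeks and 20 months, with bars of ± 1 SE from edgeR and filled points for adjusted p under 0.05. Filled points occur at 4 weeks, for Cps1, Asl, Arg1, Hal, Gls2 and Aldh1b1, and the 20-month values lie between -0.27 and 0.36.

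At 8 weeks none of the 10 passed, where 4 of 14522 genes did (0.0275%). The median log2 fold change over the 10 genes was 0.32, beside 0.02 over all genes tested. At an unadjusted p under 0.05 stood 4 of the 10 (Cps1, Arg1, Nags and Hal), beside 10.4% of all genes, and DESeq2 called none of the 10 and 109 genes in all. No member's groups were apart, as 2.25% of all genes had them, and without WT library 1, the one with kidney markers, none passed either. KO libraries spread widely: Cps1 ran from 7022 over a median of 11070 to 15340 CPM in KO livers, against 6841, 7846, 7446 and 7784 CPM in WT livers. Arg1 ran from 1112 over 1838 to 2585 CPM in KO livers, against 1156, 1272, 1176 and 1356 CPM in WT livers. Their log2 fold changes were 0.54 (SE 0.23, adjusted p = 0.474) and 0.53 (SE 0.23, adjusted p = 0.474).

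Asl spread furthest among the urea cycle genes, with 381.2, a median of 865 and 1393 CPM in KO livers, against 531.8, 651.1, 615.4 and 685.8 CPM in WT livers. One KO liver was thus below, and 4 were above, all WT livers. Otc had 221.2, a median of 369 and 538.9 CPM in KO livers, against 391.1, 448.9, 445.6 and 414.1 CPM in WT livers. Ass1 had 1171, 1562 and 2088 CPM as lowest, median and highest in KO livers, against 1194, 1351, 1257 and 1263 CPM in WT livers. The log2 fold changes were 0.48 for Asl (SE 0.31, adjusted p = 0.543), -0.18 for Otc (SE 0.23, adjusted p = 0.735) and 0.34 for Ass1 (SE 0.21, adjusted p = 0.531).

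The breakdown enzymes overlapped likewise. Hal ran from 245.3 over 338.1 to 507.7 CPM in KO livers, against 307.9, 269.6, 249.1 and 206.3 CPM in WT livers (log2 fold change 0.49, SE 0.22, adjusted p = 0.474). Gls2 ran from 224.2 over 368.1 to 542.2 CPM in KO livers, against 282.8, 332.8, 329.9 and 338.4 CPM in WT livers. Sds, with a coefficient of variation of 49.9% in KO livers and 17.3% in WT livers, ran from 66.04 over 181.5 to 343.6 CPM in KO livers, against 153.8, 164.1, 122.7 and 188.3 CPM in WT livers. Its KO range enclosed its WT range on both sides. Nags ran from 34.07 over 44.43 to 50.29 CPM in KO livers, against 34.61, 35.38, 38.34 and 33.39 CPM in WT livers, and Aldh1b1 from 32.59 over 39.85 to 73.94 CPM in KO livers, against 49.38, 48.52, 36.9 and 33.07 CPM in WT livers. Apart from Hal, the log2 fold changes of these genes were 0.17 (Aldh1b1) to 0.30 (Nags), with adjusted p of 0.476 to 0.771. Over these 10 genes the 8-week coefficients of variation were 15.4% to 49.9% in KO livers and 5.1% to 19.6% in WT livers, where the median over genes of at least 10 CPM was 19.2% in KO and 7.62% in WT livers.

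The KO livers of 8 weeks differed one from another along the same line in several members. Relative to the WT mean, Cps1 was at 2.051, 1.463, 1.025, 0.939, 1.567 and 1.497 in KO libraries 1 to 6, and Arg1 at 2.085, 1.521, 1.024, 0.897, 1.534 and 1.444. Asl was at 2.243, 1.294, 0.971, 0.614, 1.491 and 1.561. In all 3 genes libraries 3 and 4 were the lowest, at 0.614 to 1.025 times the WT mean. Not all members followed this order. Gls2 was lowest in library 2 (0.698), with 1.066 and 1.054 in libraries 3 and 4. Aldh1b1 was lowest in library 1 (0.777), with 0.997 and 0.896 in libraries 3 and 4. Otc was at 0.521, 0.616, 1.107, 1.268, 1.041 and 0.695, and Glul of the pericentral layer at 0.373, 0.329, 1.072, 1.168, 0.381 and 0.689, both highest in libraries 3 and 4. Slc10a1 was low in all 6 KO libraries, at 49.39 to 93.77 CPM, against 434.7 to 470.1 CPM in the 4 WT libraries, and libraries 3 and 4 (71.16 and 77.41 CPM) were within the range of the other 4.

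Marker sums of several cell types followed a like order over these 6 KO livers. The macrophage markers summed to 768, 738.5, 281.9, 289.9, 620.3 and 699.7 CPM in KO libraries 1 to 6, against 312.3 to 426.4 CPM in WT livers, and the stellate cell markers to 720.1, 650.2, 301.3, 396.2, 605.8 and 593.8 CPM, against 327.6 to 462 CPM in WT livers. The hepatocyte markers summed to 180000, 176600, 88440, 78040, 154400 and 141800 CPM, against 81850 to 92880 CPM in WT livers. Endothelial markers were at 307.2 to 490.4 CPM in KO livers, against 300.8 to 330.2 CPM in WT livers. All of these sums were lowest in KO libraries 3 and 4, and so was the neutrophil sum (1.215 and 0.7267 CPM). Other lists did not follow this order. The cholangiocyte sum was highest in library 3 (41.68 CPM), the lymphocyte sum in library 4 (2.693 CPM) and the intestinal sum in libraries 4 and 3 (38.38 and 29.07 CPM). The erythroid sum was lowest in libraries 3 and 5 (138.8 and 148.7 CPM). The part of these sums in the members' spread was not tested.

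**Figure D3:**
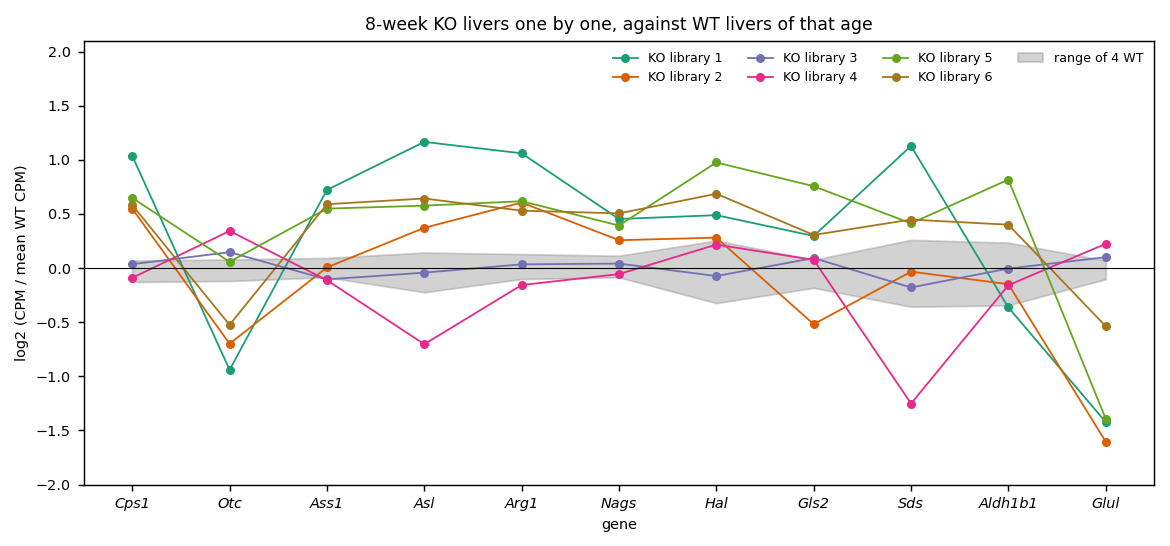
Level of the 10 genes and Glul in each of the 6 KO livers of 8 weeks, as log2 of the CPM over the mean CPM of the 4 WT livers, with a line per library and the range of the WT livers in grey. Libraries 3 and 4 lie near the grey band for Cps1, Arg1 and Glul, while library 1 is at 2.051 times the WT mean for Cps1 and 0.373 times for Glul.

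At 20 months none of the 10 passed and none of 13966 genes did (0%). The count at an unadjusted p under 0.05 was 0 of the 10 and 772 genes (5.53%), and DESeq2 called none of the 10 and 53 genes. The 2 groups overlapped in all 10, while 10.2% of all genes had groups apart. The median log2 fold change of the 10 genes was 0.23, beside -0.00327 over all genes. Cps1 was at 1593, 3243 and 2784 CPM in KO livers, against 2079, 2400 and 2457 CPM in WT livers, and Arg1 at 1595, 3130 and 2841 CPM in KO livers, against 2059, 2399 and 2307 CPM in WT livers. In both genes KO library 1 was the lowest and KO libraries 2 and 3 the highest of the 6 old livers. KO library 1 also had 14.72% of reads outside genes and 6.91% of counts in mitochondrial genes, against 7.0% to 8.52% and 2.799% to 4.815% in the other 5 old livers, and the part of this in its low values was not tested. Their log2 fold changes were 0.13 (SE 0.33, adjusted p = 0.95) and 0.16 (SE 0.33, adjusted p = 0.936).

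Asl followed the same order of libraries, with 508.4, 952.4 and 864 CPM in KO livers, against 518.4, 655.1 and 695.4 CPM in WT livers. In Ass1 KO libraries 2 and 3 were again the highest, but WT library 1 was the lowest, with 464.8, 1003 and 852.5 CPM in KO livers, against 391.3, 720.4 and 760.3 CPM in WT livers. Otc was at 532.4, 770.5 and 808.7 CPM in KO livers, against 276.6, 469.8 and 901.6 CPM in WT livers. The WT range of Otc enclosed all 3 KO values.

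The remaining 5 genes overlapped as well. Gls2 was at 262.1, 478.4 and 429.5 CPM in KO livers, against 210.3, 342.7 and 358.3 CPM in WT livers, and Sds at 127.5, 421.4 and 298.3 CPM in KO livers, against 386.2, 420.5 and 207.5 CPM in WT livers. Hal was at 243.5, 268.7 and 302.5 CPM in KO livers, against 242.5, 289.4 and 199.7 CPM in WT livers. Nags was at 30.45, 35.84 and 34.97 CPM in KO livers, against 16.59, 29.73 and 32.5 CPM in WT livers, and Aldh1b1 at 58.91, 64.57 and 72.15 CPM in KO livers, against 80.09, 80.41 and 54.21 CPM in WT livers. Over the 10 genes the log2 fold change was lowest for Sds, at -0.27 (SE 0.46, adjusted p = 0.919), and highest for Nags, at 0.36 (SE 0.26, adjusted p = 0.825). Without the 2 WT livers with high Saa2, a single WT liver remained, the log2 fold change of Otc turned to -0.37 and those of Sds and Aldh1b1 to 0.43 and 0.26, and none passed; in such a fit the lone library is taken to vary like the KO group.

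A model over all 22 libraries tested whether the knockout effect itself depended on age. Aldh1b1 passed the joint test over the 3 ages (adjusted p = 0.0458), as did 1.62% of 15877 genes. Its effect at 20 months was 2.03 lower on the log2 scale than at 4 weeks (difference -2.03, SE 0.47, adjusted p = 0.0229), where 4.52% of genes passed. The 8-week effect differed from the 4-week one by -1.73 (SE 0.43, adjusted p = 0.0681), where 0.328% of genes passed. Hal missed the joint threshold (adjusted p = 0.104), with a difference of -1.64 (SE 0.48, adjusted p = 0.0543) between 20 months and 4 weeks. For the other 8 genes the joint adjusted p lay between 0.171 and 0.718, so a smaller effect at the later ages was not shown for the urea cycle enzymes. The joint call of Aldh1b1 is close to its threshold and was lost in 17 of 22 fits that left out 1 library, with adjusted p up to 0.145 (without WT 4-week library 3). Without the 4 libraries of high Arntl, Aldh1b1 (adjusted p = 0.0109) and Hal (0.0226) passed, and without both WT livers of high Saa2, which leaves a single WT liver of 20 months, no member did (Aldh1b1 adjusted p = 0.147) and 33 genes did.

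WT livers alone give the course of the members over age, with age, run and read layout not to be told apart. Between 8 and 4 weeks Cps1, Gls2 and Aldh1b1 were higher and Asl and Arg1 lower at 8 weeks, 5 of 10 genes where 53.2% of all genes passed (27.5% higher, 25.7% lower), and 5 also without the WT library with kidney markers. Arg1 averaged 1240 ± 92.6 CPM at 8 weeks (SD, n = 4) and 2427 ± 248 CPM at 4 weeks (SD, n = 3), a log2 fold change of -0.99 (adjusted p = 7.48e-05, SE 0.12). Cps1 averaged 7479 ± 460 CPM at 8 weeks and 5343 ± 944 CPM at 4 weeks (log2 fold change 0.46, SE 0.15, adjusted p = 0.0237), a call lost without WT 4-week library 2 or 3 or WT 8-week library 2 or 4. Cps1 and Arg1 thus went opposite ways between these 2 ages of WT liver. Gls2 differed by 0.63 (SE 0.11, adjusted p = 0.000938), Aldh1b1 by 0.88 (SE 0.18, adjusted p = 0.00224) and Asl by -0.50 (SE 0.12, adjusted p = 0.00584). Scaling by library totals moved the median of all genes to 0.29, against 0.04 with TMM, and then Asl fell short (log2 fold change -0.25, adjusted p = 0.0815) and Nags passed (0.38, adjusted p = 0.00999). In the fit of all 22 libraries Arg1 and Aldh1b1 still passed, and the calls of Gls2 (adjusted p = 0.0644), Asl (0.213) and Cps1 (0.238) were lost.

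Cps1 and Arg1 differed in direction between 20 months and 8 weeks too. At 20 months Cps1 averaged 2312 ± 204 CPM (SD, n = 3), a log2 fold change of -1.74 against 8 weeks (SE 0.20, adjusted p = 0.000285), and Ass1 was lower too (-1.07, SE 0.24, adjusted p = 0.00718). Arg1 (0.82, SE 0.16, adjusted p = 0.0032), Sds (1.06, SE 0.26, adjusted p = 0.00931) and Aldh1b1 (0.72, SE 0.20, adjusted p = 0.0167) were higher at 20 months. These were 5 of 10 genes where 54.5% of all genes passed (27.7% higher, 26.8% lower). The Aldh1b1 call was lost without WT 8-week library 3 (adjusted p = 0.0528) or WT 20-month library 2 (0.058). Of the other 5, Nags had non-overlapping groups, 16.59 to 32.5 CPM at 20 months against 33.39 to 38.34 CPM at 8 weeks, with an adjusted p = 0.0895; 27.6% of all genes lay apart in that direction.

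Other cells and the acute phase differed between these WT livers too. The neutrophil markers summed to 2859, 323.4 and 5.777 CPM in the 3 WT livers of 20 months, against at most 5.625 CPM at 8 weeks, and the macrophage markers to 1064, 705.7 and 265.9 CPM, against 312.3 to 426.4 CPM at 8 weeks. Stellate cell markers were at 209.7 to 230.9 CPM at 20 months, against 327.6 to 462 CPM at 8 weeks, and endothelial markers at 185.2 to 197 CPM, against 300.8 to 330.2 CPM. Of 12 acute phase genes tested 6 were higher at 20 months (median log2 fold change 2.04). The part of these cells and genes in the change over age was not tested. Without WT libraries 1 and 2 of 20 months, the ones with high Saa2, 4 members passed: Cps1 (log2 fold change -1.59, adjusted p = 0.000115), Ass1 (-0.73, adjusted p = 0.00172), Arg1 (0.91, adjusted p = 0.000652) and Otc (1.10, adjusted p = 0.000185), which had been 0.32 (adjusted p = 0.454) with all 3. Sds (0.41, adjusted p = 0.128) and Aldh1b1 (0.37, adjusted p = 0.23) were then lost. That fit holds a single liver of 20 months, taken to vary like the 8-week group.

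Members were then followed from library to library within groups, as deviations of log2 CPM from the group mean over 22 libraries. Of 85 relations computed, 45 were pairs of members, and the others set each member against Arntl, Pck1 (gluconeogenesis), Saa2 and Glul. The p-values come from 100000 permutations within groups and are adjusted over the 85. Of the 45 pairs of members 8 passed, all positive, with a median r of 0.34 and a range of -0.45 to 0.96.

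The tightest pair was Cps1 and Arg1, with r = 0.96 and rho = 0.90 (permutation p = 1e-05, the smallest these permutations can give, adjusted p = 0.000425), and r = 0.93 without the 2 libraries farthest out in Cps1. Cps1 and Asl had r = 0.92 and rho = 0.93 (permutation p = 1e-05, adjusted p = 0.000425), and r = 0.91 without the 2 farthest. Asl and Arg1 had r = 0.86, rho = 0.81 (permutation p = 0.00055, adjusted p = 0.00779), and r = 0.78 without the 2 farthest. Ass1 joined these 3 genes with r of 0.70 to 0.79, rho of 0.73 to 0.82, permutation p of 0.00026 to 0.00071 (adjusted p of 0.00552 to 0.00862), and r of 0.70 to 0.72 without the 2 farthest. Pairs that reached into amino acid breakdown were Asl with Sds (r = 0.77, rho = 0.68, permutation p = 0.00228, adjusted p = 0.0242, r = 0.56 without the 2 farthest) and Ass1 with Gls2 (r = 0.71, rho = 0.75, permutation p = 0.00319, adjusted p = 0.0301, r = 0.74 without the 2 farthest). Otc, an enzyme of the same cycle, had r of -0.20 to 0.42 with the other 4 over the 22 libraries, none of which passed.

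The 6 KO libraries of 8 weeks weigh on these numbers. Without them Cps1 with Arg1 (r = 0.92, adjusted permutation p = 0.0119) and Cps1 with Asl (r = 0.91, adjusted permutation p = 0.0414) passed still, beside Asl with Gls2 (r = 0.87), and 3 of 85 relations passed in all. Otc then had r = 0.82 and rho = 0.83 with Ass1 (permutation p = 0.00443, adjusted p = 0.0753, r = 0.80 without the 2 farthest), 0.64 with Arg1, 0.51 with Cps1 and 0.43 with Asl (adjusted permutation p of 0.19 to 0.429), of which none passed. Within the 6 KO livers of 8 weeks r of Otc was -0.57 with Ass1, -0.82 with Asl, -0.84 with Cps1 and -0.86 with Arg1, so its low r over 22 libraries rests on those livers. Arg1 and Glul had r = -0.64 and rho = -0.59 over 22 libraries (permutation p = 0.0056, adjusted p = 0.0476, r = -0.62 without the 2 farthest), and r = -0.26 without those 6 libraries (adjusted permutation p = 0.599), so that relation rests on them.

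**Figure D4:**
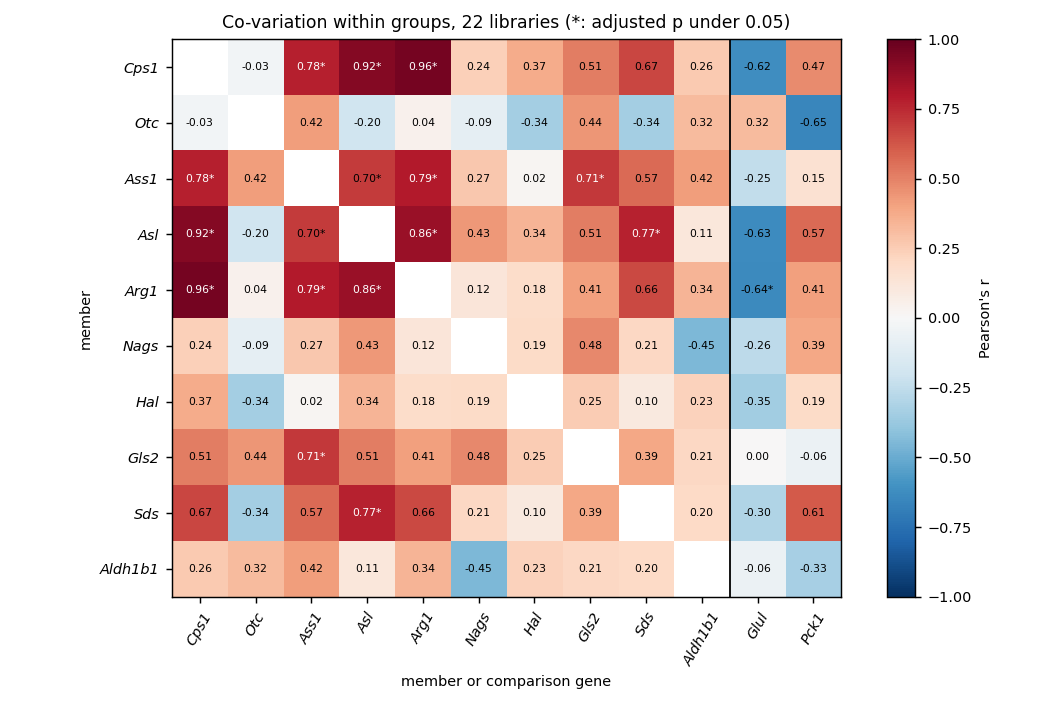
Pearson's r of within-group deviations of log2 CPM over 22 libraries, for all pairs of the 10 genes and for each gene with Glul and Pck1, with a star where the adjusted permutation p is under 0.05. Cps1, Ass1, Asl and Arg1 form the block of high values, up to 0.96, and Otc has -0.20 to 0.42 with these 4 over all 22 libraries.

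Otc was low in libraries with high Arntl. Libraries fall into 2 clusters by Arntl, 4 of at least 40.03 CPM and 18 of at most 10.89 CPM, so no pooled r is given. The pooled relation is among those that passed, but without the KO libraries of 8 weeks it did not pass (adjusted permutation p = 0.111). Low Otc also occurred among the 18, at 276.6 CPM in WT library 1 of 20 months and 295.5 CPM in KO library 6 of 8 weeks. Otc was at 182.8 CPM in KO library 1 of 4 weeks and at 221.2 and 261.8 CPM in KO libraries 1 and 2 of 8 weeks, the lowest of their groups. In WT library 1 of 4 weeks it was at 405.8 CPM, also the lowest of its group, but close to the 415.9 CPM of WT library 3. Within the 18 libraries of low Arntl, r was -0.58 and rho -0.66 (permutation p = 0.0107 and 0.0146, not adjusted), and r was -0.56 without the 2 farthest. This split was chosen after the values were seen, so these p-values are a description only. Leaving out the libraries with high Arntl, the log2 fold change of Otc was 0.10 at 4 weeks and 0.04 at 8 weeks, neither of which passed. The labels give no time of day.

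**Figure D5:**
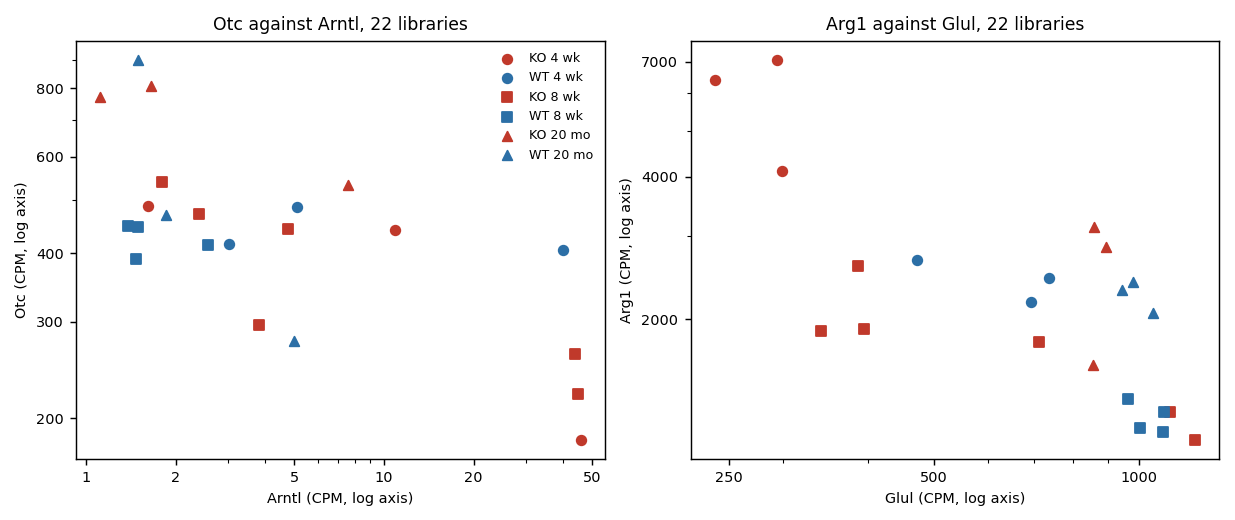
Otc against Arntl and Arg1 against Glul in each of the 22 libraries, both axes in CPM on log scales, KO red and WT blue, with the marker shape for age. On the left 4 libraries stand apart at 40.03 CPM of Arntl or more, and on the right the KO livers of 4 weeks lie at the upper left, with 237.9 to 299 CPM of Glul.

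As a description, the genes whose within-group pattern was most like each member were ranked over 8101 genes of sufficient level in the 22 libraries. For Cps1 they were Cth, which cleaves cystathionine (r = 0.90), and Mfsd2a (0.87), and for Asl Glt1d1 (0.90) and Cth (0.88). Arg1 was nearest to Mfsd2a (0.93) and Dhrs7 (0.86). Ass1 was nearest to its pseudogene Gm5424 (0.97), which may share its reads, and to Txn2 (0.91). Otc had quite other neighbours, Il1rap and Mterf4 (0.96 each). Gls2 had Gpd1l (0.87) and Paics (0.84), Sds Nnmt and Slc25a51 (0.87 each), Nags Tmem185a (0.83) and Abcg8 (0.81), Hal Ablim1 (0.80) and Smarce1 (0.76), and Aldh1b1 Zfp970 and Map3k13 (0.79 each).

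Around the members, other nitrogen genes moved in part at 4 weeks, when 10.8% of all genes passed in either direction and 5.17% as higher. Of 17 tested genes of histidine, serine and glycine breakdown 4 rose and none fell (median log2 fold change 0.41), among them Ftcd of the histidine route, 0.94 (SE 0.20, adjusted p = 0.0242), and Agxt2, 0.80 (SE 0.19, adjusted p = 0.0325). Of 11 genes of methionine and cysteine breakdown 2 rose and none fell (median 0.64): Cth by 2.07 (SE 0.36, adjusted p = 0.0125) and Mat1a, which makes S-adenosylmethionine, by 1.24 (SE 0.31, adjusted p = 0.04). Of 9 transaminase and proline or glutamate genes 1 rose (median 0.69), the cytosolic aspartate aminotransferase Got1, by 2.27 (SE 0.43, adjusted p = 0.0163). Of 14 aromatic amino acid genes Acmsd alone rose (median 0.15), and of 17 lysine and branched-chain genes Bckdhb and Dbt, subunits of the branched-chain keto acid dehydrogenase, rose (median 0.18). Shares such as 1 of 14, 1 of 9 or 2 of 17 are near those of all genes.

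Genes that feed the urea cycle were split. Of 7 tested transporters and cofactor enzymes 1 rose and 1 fell (median 0.12). Slc25a12, a mitochondrial aspartate and glutamate carrier, rose by 1.12 on the log2 scale (adjusted p = 0.0225, SE 0.23). The groups overlapped for Slc25a13 of the same list, which had a higher level. It was at 196, 448.9 and 450.3 CPM in KO livers, against 401.6, 399.2 and 370.4 CPM in WT livers. Car5a, which supplies mitochondrial bicarbonate, had a log2 fold change of -1.55 (adjusted p = 0.0445, SE 0.41). Of 12 amino acid carriers Slc43a1 rose and Slc6a13 fell (median 0.62). Of 3 tested genes of pericentral ammonia capture Glul fell (median -0.72): it was at 299, 237.9 and 293.6 CPM in KO livers, against 471.9, 737.7 and 694.6 CPM in WT livers (log2 fold change -1.16, SE 0.24, adjusted p = 0.0225). Oat of the same list lay the other way, at 677.3, 1527 and 1741 CPM in KO livers, against 517.5, 658.9 and 459.4 CPM in WT livers. Slc1a2 was at 73.58, 77.03 and 95.86 CPM in KO livers, against 99.41, 163.4 and 154.4 CPM in WT livers. Neither Oat nor Slc1a2 passed. Glul was thus lower where Cps1, Asl and Arg1 were higher, but its list was split.

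Among other genes of the periportal zone no rise passed the test. Of 14 other periportal genes none rose and 2 fell (median 0.16), Cyp2f2 by a log2 fold change of -2.19 (adjusted p = 0.00126, SE 0.22) and Ctsc by -1.63 (adjusted p = 0.00603, SE 0.23). Cyp2f2, a cytochrome P450 of the portal end, was at 74.42, 75.82 and 73.44 CPM in KO livers, against 272.4, 360.9 and 418.8 CPM in WT livers. Of 17 pericentral genes 1 rose and 3 fell (median -0.34). Of 12 genes of the glucagon and fasting response 3 rose and none fell (median 0.53), with Ppargc1a, a coactivator of gluconeogenesis, at 1.60 (SE 0.20, adjusted p = 0.00366) and Igfbp1 at 3.58 (SE 0.46, adjusted p = 0.00434), while Pck1 did not pass (0.02, SE 0.30, adjusted p = 0.969). Among 14 regulators of nitrogen genes Atf4, a factor of the amino acid response, rose by 1.00 (SE 0.23, adjusted p = 0.0294) and Gcgr, the glucagon receptor, had a log2 fold change of -1.28 (adjusted p = 0.00933, SE 0.20), with a list median of -0.16. No clock gene of 11 passed (median 0.16), and of 11 acute phase genes 3 rose and 2 fell (median 0.45). At 8 weeks and 20 months no gene of these 14 lists passed.

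Other cell types were checked beside the 4-week result. The 6 macrophage markers summed to 275.3 to 518.5 CPM in KO livers and 528 to 637.5 CPM in WT livers, and the 4 erythroid ones to 131.9 to 162.7 CPM in KO and 291.5 to 404.5 CPM in WT livers. The 6 cholangiocyte markers, cells of the bile ducts at the portal tract, summed to 17.13 to 26.55 CPM in KO livers and 34.94 to 40.59 CPM in WT livers. The sum of the stellate cell markers was higher, at 329.6 to 464 CPM in KO livers and 245.7 to 327.4 CPM in WT livers. Gene by gene the stellate list was split, with 1 of 6 markers higher, 1 lower and a median log2 fold change of 0. Endothelial markers summed to 161.5 to 214.6 CPM in KO and 222.7 to 263.9 CPM in WT livers, lymphocyte markers to 1.207 to 2.562 CPM in KO and 4.139 to 5.618 CPM in WT livers, and intestinal markers to 8.567 to 87.49 CPM in KO and 139.6 to 221.7 CPM in WT livers. Hepatocyte markers (47870 to 177700 CPM in KO and 126500 to 146800 CPM in WT livers) and neutrophil markers (7.055 to 19.43 CPM in KO and 4.84 to 15.6 CPM in WT livers) overlapped, and kidney markers were at 0. Apart from these last 3 lists, the sums did not overlap between genotypes at 4 weeks, and their part in the members' rise was not tested. Of single genes 15.8% lay apart as higher and 19.8% as lower in KO. None of the 5 lymphocyte markers passed the filter on low counts. Only 1 of 6 cholangiocyte and 1 of 3 intestinal markers passed that filter, and neither was called.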

How the data were processed

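The deposited values are raw counts per Ensembl gene, 1 table per liver library. Per the submitters' processing notes, the authors used HISAT2 2.0.4, HTSeq 0.6.1p1 and GRCm38; the annotation release and strand setting are not given in the sources used here. Reads outside genes, 6.13% to 17.78%, and the other summary lines stayed out of library sizes. Symbols and exon lengths came from GENCODE M21 (47224 of 47729 genes matched), promoters from RefSeq. Counts were analysed with edgeR 4.0.16 in R 4.3.3 (filterByExpr, TMM, quasi-likelihood F-test, Benjamini-Hochberg over all genes, threshold 0.05), within each age, between WT ages, and over 22 libraries for the difference between ages. The scripts were tested on simulated data. CPM used TMM factors of all libraries, and log2 CPM a prior count of 2. No 2 libraries of a group agreed within sampling noise (chi-square per degree of freedom at least 8.34). Members and lists were chosen with earlier results of these data known. All members are named, and of each other list at most 2 genes per direction by adjusted p; Cyp2f2, Igfbp1, Ppargc1a and Cth values by library were chosen after they were seen. Alternatives were RLE factors, library totals, DESeq2 1.42.0, no filter, 1 fit of 22 libraries, a replicate block, and leaving libraries out. Libraries with high Arntl or Saa2 were left out as alternatives chosen after seeing the data.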

Additional observations from a re-analysis of the deposited data

Results flagged for a closer look

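Gls2 was at 282.8 CPM in WT 8-week library 1, against 329.9 to 338.4 CPM in the other 3 WT livers of that age, a gap of 0.847 of the group's range where 0.829 is the critical value for 4 samples. The same library holds the kidney transcripts Kap (153.7 CPM), Umod (17.27 CPM) and Slc12a1 (7.779 CPM); their part in the Gls2 value was not tested. It was 1 of 20 such tests over the 10 genes, and chance marks about 1 in 20.

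Aldh1b1 passed the joint test for a knockout effect that differs between ages (adjusted p = 0.0458, edgeR's quasi-likelihood test over the 22 libraries). The call was lost in 17 of 22 fits that left out 1 library, with adjusted p up to 0.145 by that test. With a replicate block within age it was lost too (adjusted p = 0.138 by that test). The difference between 20 months and 4 weeks was -2.03 on the log2 scale (adjusted p = 0.0229 by the same test), with all 3 KO livers above all 3 WT livers at 4 weeks and overlapping groups at 20 months.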

How the results depend on the processing

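The direction and call of most members held under other scalings, tools and filters, but the 4-week calls depend on single libraries. Of the 10 members, 6 passed at 4 weeks; leaving out 1 library gave 0 to 7. A replicate block gave 2 (Asl and Hal), and calls over all genes went to 537. Library 1 of both genotypes had high Arntl. Deviations of same-numbered libraries had r of -0.041 to 0.026, with 1 of 6 closest to its own number. In groups this small such correlations cannot exclude pairing. At the other ages such correlations were -0.284 to 0.075 (8 weeks) and 0.068 to 0.4 (20 months; 5 of 6 closest to their own number), and no member was called with or without the block. All genes called at 4 weeks were 1200, 2048 with no filter, 2652 without the 2 libraries of high Arntl and 184 to 2012 with 1 library left out. At 8 weeks they were 4, 109 with DESeq2, 0 with the block and 1 to 5 with 1 library left out, and at 20 months 0, 53 with DESeq2 and up to 71 (without WT library 3).

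The difference between ages was called for 1 member and 258 genes, for 2 members (Aldh1b1 and Hal) and 1226 genes with DESeq2, for 0 members and 7 genes with the replicate block within age, and for 0 to 1 members and 26 to 1081 genes with 1 library left out. It was called for 2 members and 757 genes without the 4 libraries of high Arntl, and for 0 members and 33 genes without both WT livers of high Saa2. Between WT 8 and 4 weeks 5 members passed, 2 in the fit of all 22 libraries (Arg1 and Aldh1b1), and 4 to 6 with 1 library left out. Library totals turned the split of all genes to 5342 higher and 2462 lower, against 3850 and 3599. Of the 85 relations 10 passed, 16 without the 4-week libraries and 3 without the KO libraries of 8 weeks.

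Log2 fold changes that changed sign belonged to members not called with TMM scaling and all libraries; the cause was not tested. With 1 library left out at a time, Otc ran from -0.44 to 0.14 at 4 weeks (0.14 without KO library 1), Aldh1b1 from -0.02 (without KO library 5) to 0.27 at 8 weeks, and at 20 months Cps1 from -0.07 to 0.37, Arg1 from -0.02 to 0.39 (both lowest without KO library 2) and Sds from -0.66 to 0.08 (highest without KO library 1). For WT 8 over 4 weeks, Otc then ran from -0.10 to 0.03, Ass1 from -0.30 to 0, Hal from -0.37 to 0.55 (without WT 4-week library 1, adjusted p = 0.0235 by edgeR) and Sds from -0.33 to 0.18, and for WT 20 months over 8 weeks Otc from -0.27 to 0.65, Asl from -0.16 to 0.06 and Gls2 from -0.30 to 0.07. Without the libraries of high Arntl, Otc was at 0.10 at 4 weeks and 0.04 at 8 weeks, and without the 2 WT libraries of high Saa2 at 20 months Otc was at -0.37, Sds at 0.43 and Aldh1b1 at 0.26. At 8 weeks the block gave -0.01 for Gls2, -0.05 for Sds and -0.15 for Aldh1b1. For WT 8 over 4 weeks, library totals gave Otc 0.19, Ass1 0.05, Hal 0.17 and Sds 0.2, no filter gave Otc and Sds 0.02, and the block gave Hal 0.18. For WT 20 months over 8 weeks, Asl was at 0 in the fit of all libraries and with the block, and without both WT livers of high Saa2 Asl was at 0.18 and Gls2 at 0.17.

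The 4-week libraries hold the fewest counts, with 3 libraries a group, and the SE of the members' log2 fold changes there was 0.20 to 0.45.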

Other observations

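Libraries 3 and 4 among the KO livers of 8 weeks stood apart from the other 4 in genes beyond the members. They were near WT livers in Cth, below all WT livers in Igfbp1 and Ppargc1a and above all WT livers in Cyp2f2. Igfbp1, which rises in fasting, was at 7797, 1830, 49.89, 20.86, 525.8 and 718.4 CPM in KO libraries 1 to 6, against 58.22, 68.94, 66.09 and 267.9 CPM in the 4 WT livers. Ppargc1a was at 212.7, 163, 11.18, 12.61, 68.56 and 106.9 CPM in the KO libraries, against 23.37, 23.94, 21.83 and 33.59 CPM in WT livers, so that libraries 3 and 4 were below and the other 4 above all WT livers. Cth was at 1394, 425.7, 261.1, 247.3, 668.1 and 595.6 CPM in the KO libraries, against 211.2 to 250.1 CPM in WT livers. Cyp2f2 ran the other way, with 181, 139.6, 921.5, 892.6, 433.2 and 265.5 CPM in the KO libraries, against 795.3, 825.4, 804.6 and 630.4 CPM in WT livers. Slc10a1 was low in all 6. These genes were picked after their values were seen, the labels name nothing that sets the 6 KO livers apart, and no test was made of the 2 libraries against the others.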
